A study of Mus musculus with 2 samples.

Results

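Genes of glycolysis and of the response to low oxygen were read in bone marrow-derived macrophages, which are grown in culture from marrow precursors. The 36 genes were chosen by name, as the enzymes, transporters and regulators of glycolysis and well-known target genes of hypoxia-inducible factor (HIF). The choice was made with earlier results of these data known. Of the 36 genes, 35 stand in the deposited table under the symbol listed, and Ero1l stands there under its current symbol, Ero1a. With a filter of at least 1 FPKM on the mean of the 2 libraries, 32 of the 36 were kept, among 10536 of the 40017 symbols in the table. FPKM is fragments per kilobase of gene and scaled to the mapped fragments of a library, so levels of different genes can be compared per length.

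The study asked how SPP1, the secreted protein osteopontin, acts on macrophages. The KO library comes from mice of genotype SPP1fl/fl-Lyz2-icre, in which a Cre recombinase placed at Lyz2 acts in myeloid cells, and the WT library from SPP1fl/fl mice without the Cre. Both groups carry the floxed allele and had 5 days of culture in DMEM with 20 ng/ml M-CSF, the growth factor of macrophages. Each genotype has 1 library. The strain, age and number of animals, any further treatment and the oxygen level were not stated in the labels. With 1 library a group there is no test, no error and no p-value, and every difference below is one between these 2 libraries.

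Glycolysis splits glucose into pyruvate in the cytosol, and lactate dehydrogenase turns pyruvate into lactate. HIF is a pair of proteins whose alpha subunit is hydroxylated and destroyed when oxygen is present. When oxygen falls, or when macrophages are activated by bacterial products, the alpha subunit persists and HIF raises transcription of glycolytic genes and of genes for mitochondrial turnover, collagen hydroxylation and growth restraint. Many glycolytic enzyme genes are thus HIF targets themselves.

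A few facts of the libraries bear on all values. Spp1 itself stood at 11.3 FPKM in KO against 4006 FPKM in WT. Lyz2, the most abundant macrophage marker, made up 3.21% of all FPKM in KO against 6.93% in WT, and FPKM of all other genes is relative to a total that holds it. All 8 macrophage markers were present and summed to 17172 FPKM in KO against 33140 FPKM in WT, most of it Lyz2. By the size rule given below, Lyz2 was lower in KO and Fcgr1 higher, at 190.2 FPKM in KO against 99.2 FPKM in WT. The other 6, Adgre1, Csf1r and Cd68 among them, were neither. The 10 listed interferon-response genes, a sign of the cells' state, summed to 1685 FPKM in KO against 550.5 FPKM in WT. The 8 stromal markers summed to 4.97 FPKM in KO against 10.3 FPKM in WT, each lower in KO, with none at 0. The 8 neutrophil markers summed to 3.25 FPKM in KO against 1.72 FPKM in WT, most of it S100a8. Ly6g, Elane and Camp were listed at 0 in both. The 7 lymphoid markers summed to 3.28 FPKM in KO against 2.25 FPKM in WT, with Cd3e, Cd3d and Nkg7 listed at 0 in both. The 8 proliferation genes summed to 444.3 FPKM in KO against 427.6 FPKM in WT, most of it Pcna. In direction, 4 of these 8 were higher and 4 lower in KO. The part of any of these in the values below was not tested. In such bulk RNA, fewer cells of a type and less RNA per cell cannot be told apart.

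In sum, the glycolysis and hypoxia genes were close to level between the 2 libraries. Together the 32 genes past the filter summed to 2838 FPKM in KO against 2846 FPKM in WT, which is 0.673% of all FPKM in KO and 0.668% in WT. These totals hold Lyz2 and Spp1, which took a larger part in WT, so the order of the 2 close shares depends on them. Most of the sum of the 32 genes came from the 15 enzymes, at 2563 FPKM in KO against 2553 FPKM in WT. It therefore says little about the HIF targets outside glycolysis, which summed to 165.7 FPKM in KO against 177.9 FPKM in WT. For 22 of the 32, the FPKM in KO lay within 10% of that in WT. The share of all symbols within that limit was not worked out. Differences are on the log2(FPKM + 1) scale, KO minus WT, on which the change of a gene with low values appears smaller than it is. On this scale the middle 50% of all 10536 symbols ran from -0.12 to 0.10 and held 18 of the 32. Small differences were thus common among all symbols and not particular to these genes. The size rule used here counts a gene as higher or lower when the FPKM + 1 values differ by at least 25%, which is 0.32 on the log2 scale. By this rule none of the 32 was higher in KO and 3 were lower, Gapdh, Mxi1 and Ndrg1. Among all 10536 symbols, 7.55% were higher and 4.30% lower by the same rule. The 3 lower members are 9.38% of the 32. With a pseudocount of 5 FPKM in place of 1, Gapdh was at -0.25 and Mxi1 and Ndrg1 both at -0.29, and no member was counted. By a stricter rule of 50%, no member was counted in either direction, against 3.24% of all symbols higher and 1.15% lower. By a rule of 100% the shares of all symbols were 1.23% higher and 0.475% lower, again with no member counted.

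**Figure D1:**
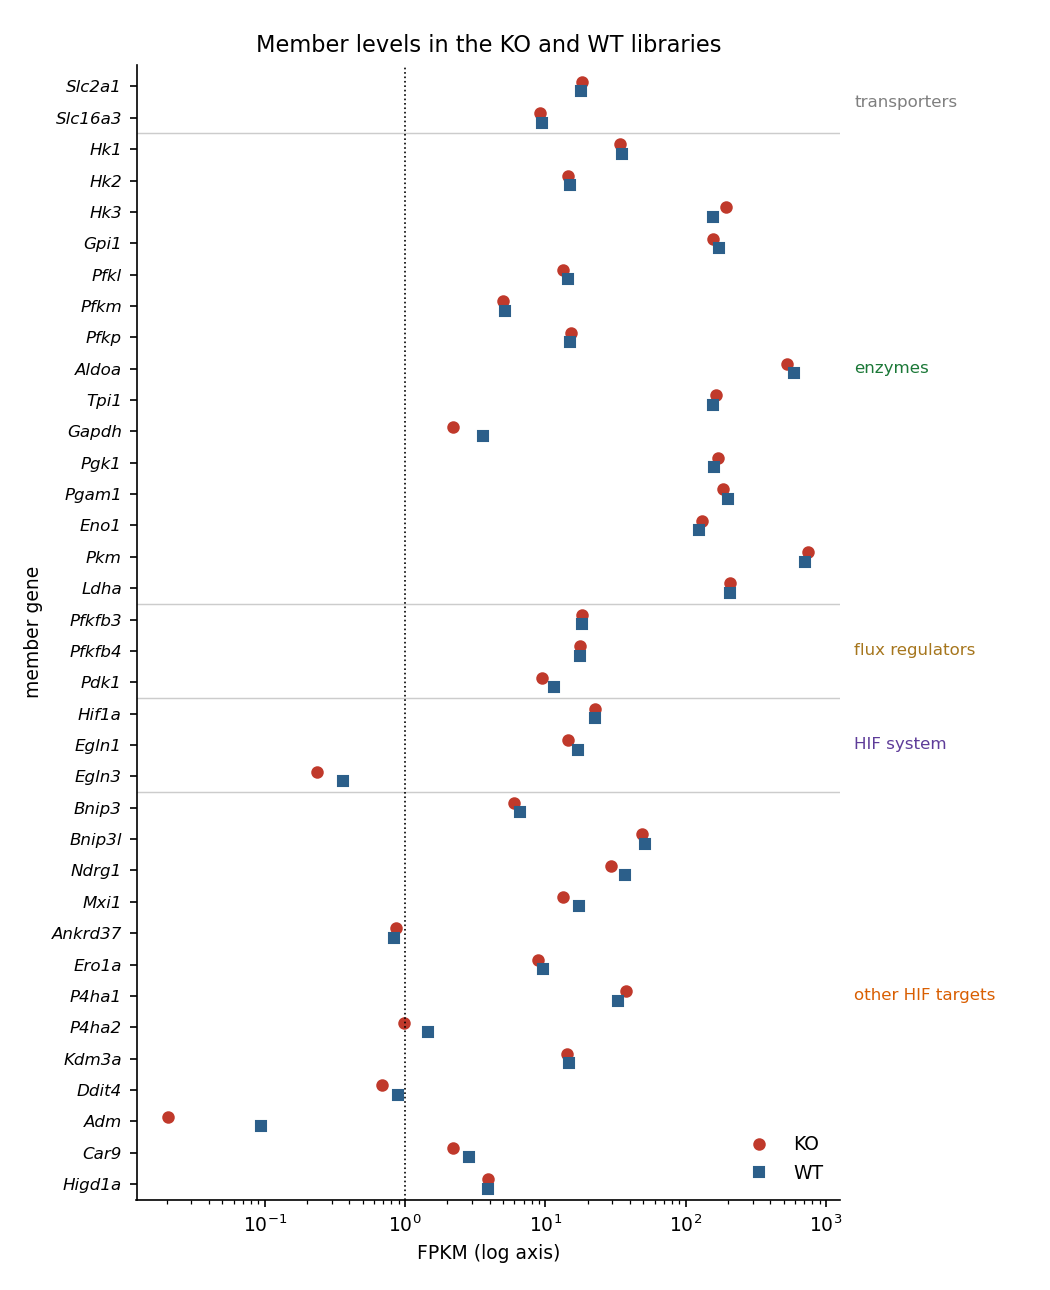
FPKM of each of the 36 genes (log axis) in the KO library (circles) and the WT library (squares), grouped by role, with the filter of 1 FPKM as a dotted line. The paired points nearly coincide for most genes, Gapdh lies far below the other abundant enzymes in both libraries, and Adm, Egln3, Ddit4 and Ankrd37 lie below the filter.

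Glucose enters and lactate leaves the cell through transporters whose transcripts were level. Slc2a1, the glucose transporter GLUT1, stood at 18.1 FPKM in KO against 17.97 FPKM in WT, a difference of 0.01. Slc16a3, the lactate exporter MCT4, stood at 9.21 FPKM in KO against 9.49 FPKM in WT, a difference of -0.04. Slc2a1 was the more abundant of the pair in both libraries.

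Early steps of glycolysis are run by families of isozymes. Of the hexokinases, which trap glucose as its phosphate, Hk3 stood at 192.4 FPKM in KO against 156.2 FPKM in WT, the largest positive difference among the members (0.30), just short of the size rule. The difference of Hk3 was above that of 91.7% of all symbols past the filter. Hk3, the form found in myeloid cells, made up 79.8% of the summed hexokinase FPKM in KO and 75.7% in WT. Hk1, the widely expressed form that binds mitochondria, stood at 34.2 FPKM in KO against 35.2 FPKM in WT, and Hk2, the form known as an HIF target, at 14.5 FPKM in KO against 15.003 FPKM in WT. The order Hk3, Hk1, Hk2 was the same in both libraries. Hk2 also has a repeat row numbered 1 in the table, at 0.199 FPKM in KO against 0.114 FPKM in WT, so its value is less certain.

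Phosphofructokinase, the step at which glycolysis is chiefly controlled, has 3 genes, and their sum was 33.6 FPKM in KO against 34.7 FPKM in WT. Pfkl, the liver form, stood at 13.3 FPKM in KO against 14.6 FPKM in WT (difference -0.13). Pfkp, the platelet form, stood at 15.3 FPKM in KO against 15.03 FPKM in WT (0.03). Pfkm, the muscle form, was the least abundant in both, at 4.97 FPKM in KO against 5.12 FPKM in WT (-0.03). Pfkp took 45.7% of the sum in KO and 43.3% in WT, ahead of Pfkl in both libraries.

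Of the 15 enzymes, 9 lay above 100 FPKM in both libraries, Hk3 among them. Pkm, pyruvate kinase, was the most abundant member, at 743.8 FPKM in KO against 703.4 FPKM in WT (0.08), number 52 of all symbols in KO and number 51 in WT. Aldoa, the aldolase that cleaves the sugar, followed at 528.9 FPKM in KO against 588.8 FPKM in WT (-0.15), number 84 in KO and number 65 in WT. Aldoa was 39.8 times as abundant as Pfkl in KO and 40.3 times in WT.

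The remaining enzymes differed in both directions by small amounts. Ldha, the lactate dehydrogenase subunit that favours lactate, stood at 208.0 FPKM in KO against 205.8 FPKM in WT (0.01). Pgam1, phosphoglycerate mutase, stood at 185.7 FPKM in KO against 199.3 FPKM in WT (-0.10), and Gpi1, which turns glucose phosphate into fructose phosphate, at 155.8 FPKM in KO against 172.4 FPKM in WT (-0.15). Pgk1, the first step that yields ATP, stood at 169.7 FPKM in KO against 158.7 FPKM in WT (0.10). Tpi1, triose phosphate isomerase, stood at 164.3 FPKM in KO against 156.1 FPKM in WT (0.07). Eno1, enolase, stood at 129.8 FPKM in KO against 124.1 FPKM in WT (0.06), and it too has a repeat row, at 0.825 FPKM in KO against 0.730 FPKM in WT. Pseudogene copies are known for several of these genes, so reads shared between copies make their values less certain.

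Gapdh, the dehydrogenase between aldolase and Pgk1, was out of scale with its neighbours in the pathway. It stood at 2.20 FPKM in KO against 3.59 FPKM in WT, a difference of -0.52 and the largest in size among the members. Pgk1, the next step, was 77.1 times as abundant as Gapdh in KO and 44.3 times in WT. Gapdh has 1 row in the table, and it has many near-identical pseudogene copies in the mouse genome. How reads that match several copies were counted is not stated in the labels, so the level and the difference of Gapdh are both uncertain. Without Gapdh the other 14 enzymes summed to 2561 FPKM in KO against 2550 FPKM in WT. Apart from Gapdh and Hk3, the 13 enzymes ran from -0.15 to 0.10.

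The regulators of glycolytic flux split. Pfkfb3 and Pfkfb4, which make the sugar bisphosphate that activates phosphofructokinase, were level, at 18.21 FPKM in KO against 18.17 FPKM in WT for Pfkfb3 and 17.56 FPKM in KO against 17.54 FPKM in WT for Pfkfb4. Pdk1, the kinase that shuts pyruvate out of mitochondria by inactivating pyruvate dehydrogenase, stood at 9.51 FPKM in KO against 11.6 FPKM in WT, a difference of -0.26. That was 17.96% lower in KO and short of the size rule, and 7.07% of all symbols had a lower difference.

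Of the oxygen-sensing genes, Hif1a, the regulated alpha subunit of HIF-1, was level, at 22.4 FPKM in KO against 22.7 FPKM in WT (-0.02). Its protein is controlled by degradation, which RNA does not show. Egln1, the prolyl hydroxylase PHD2 that marks the alpha subunit for destruction and is itself an HIF target, stood at 14.5 FPKM in KO against 17.1 FPKM in WT (-0.22), short of the size rule. Egln3, the hydroxylase PHD3, was below the filter, at 0.237 FPKM in KO against 0.362 FPKM in WT.

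Of the members that are HIF targets outside glycolysis, 8 of the 10 past the filter had lower values in KO, against 52.6% of all symbols. The change in FPKM ran from -32.0% to -20.7% for Ndrg1, Car9, Mxi1 and P4ha2, and from -9.67% to -3.70% for Bnip3, Bnip3l, Ero1a and Kdm3a. Mxi1, a MYC antagonist of the MAX network, stood at 13.4 FPKM in KO against 17.5 FPKM in WT, a difference of -0.36 (23.6% lower in KO). In all, 3.09% of all symbols had a lower difference. Ndrg1, a stress-response protein also linked to growth restraint, stood at 29.3 FPKM in KO against 37.0 FPKM in WT, a difference of -0.33 (20.7% lower), which barely passed the size rule. With the trimmed mean of log ratios set to 0, Ndrg1 was at -0.31 and no longer counted. On GRCm38, Mxi1 lies on chromosome 19 at 53310518 to 53375810 on the plus strand, and Ndrg1 on chromosome 15 at 66929318 to 66969640 on the minus strand.

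Among genes of mitochondrial turnover, Bnip3l, also called NIX, a receptor that marks mitochondria for autophagy, stood at 49.1 FPKM in KO against 51.0 FPKM in WT (-0.05). Its relative Bnip3 was less abundant, at 5.997 FPKM in KO against 6.64 FPKM in WT (-0.13). Higd1a, a small protein of the mitochondrial inner membrane, was level at 3.90 FPKM in KO against 3.89 FPKM in WT.

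The collagen prolyl hydroxylase genes, whose products stabilise the collagen helix, differed in opposite directions. P4ha1 stood at 37.7 FPKM in KO against 33.1 FPKM in WT, the largest positive difference of this group (0.18). P4ha2 stood at 0.988 FPKM in KO against 1.45 FPKM in WT (-0.30). Its mean lay just above the filter, which it passed only through its WT value. Neither passed the size rule. P4ha1 was 38.2 times as abundant as P4ha2 in KO and 22.8 times in WT.

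Of the rest, Car9, a carbonic anhydrase of the cell surface that buffers acid, stood at 2.20 FPKM in KO against 2.84 FPKM in WT (-0.26). Ero1a, an oxidase that helps to form disulfide bonds in the endoplasmic reticulum, stood at 8.82 FPKM in KO against 9.66 FPKM in WT (-0.12). Kdm3a, a histone demethylase, stood at 14.2 FPKM in KO against 14.8 FPKM in WT (-0.06). Below the filter lay Ankrd37, an ankyrin-repeat protein gene, at 0.863 FPKM in KO against 0.841 FPKM in WT, and Ddit4, an inhibitor of mTORC1 signalling also called REDD1, at 0.683 FPKM in KO against 0.888 FPKM in WT. Ankrd37 was the member just outside the filter, and P4ha2 the one just inside. Adm, which encodes the vessel-dilating peptide adrenomedullin, was near the floor, at 0.0206 FPKM in KO against 0.0947 FPKM in WT. With the relative depth read from the lowest values of the table, the Adm values stand in the ratio of 1 read in KO to 6 in WT, the lowest whole numbers that fit, so its difference rests on very few reads.

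**Figure D2:**
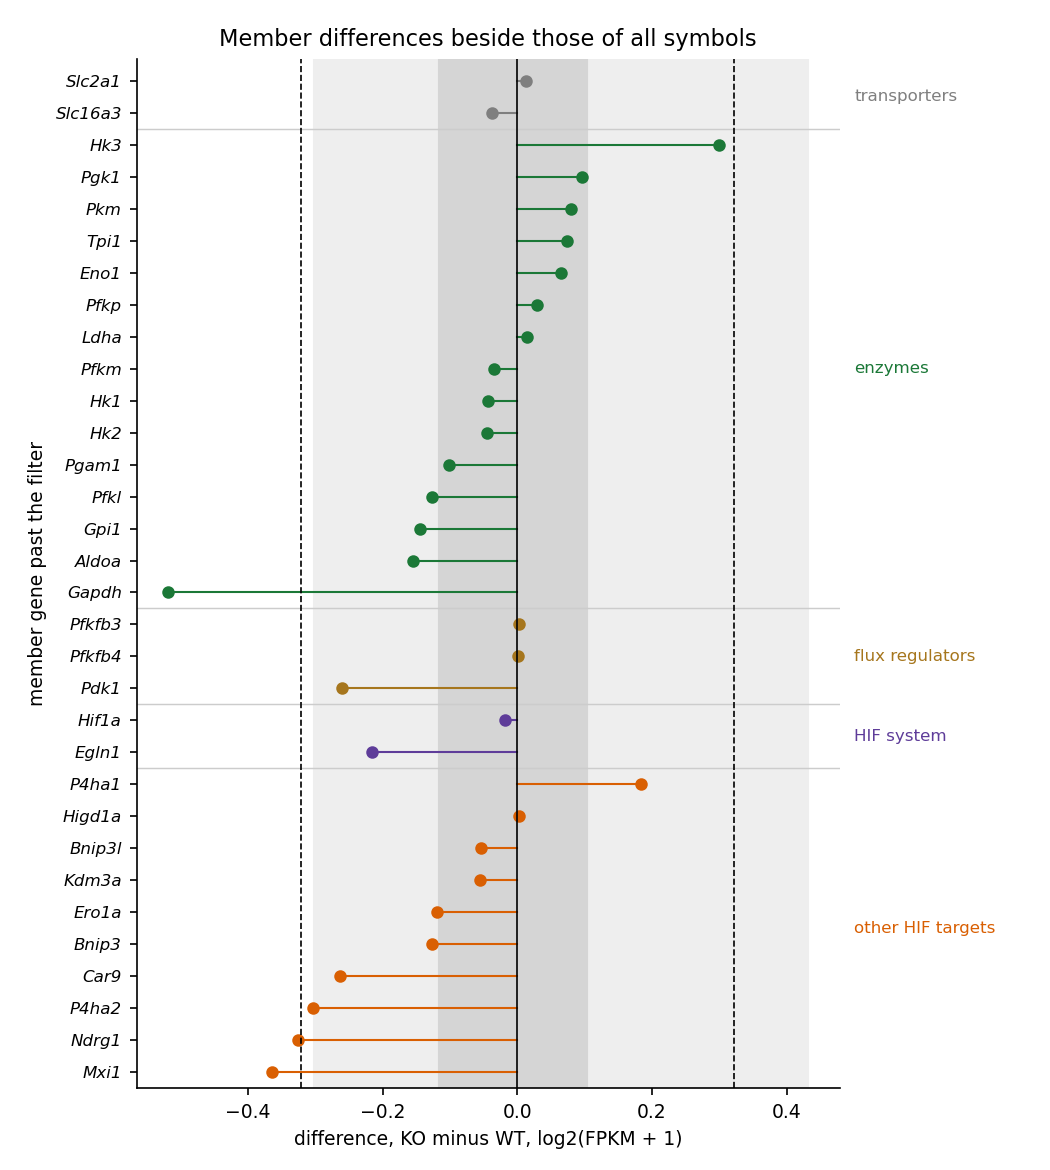
Difference in log2(FPKM + 1), KO minus WT, of the 32 genes past the filter, grouped by role. The dark and light grey bands hold the middle 50% and 90% of all 10536 symbols (-0.12 to 0.10, and -0.30 to 0.43), and dashed lines mark the size rule at 0.32 in either direction. 28 of the 32 genes lie within the light band, and Gapdh, Mxi1, Ndrg1 and P4ha2 lie below it.

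Set side by side, the enzymes had a median difference of -0.03 over 15 genes and the other HIF targets -0.12 over the 10 of 13 past the filter (-0.12 also over all 13 with no filter). The median of all 10536 symbols was -0.01. The enzymes were split evenly in direction, 7 higher and 8 lower in KO, while 8 of the 10 other HIF targets were lower, all but P4ha1 and Higd1a. Over all symbols, 52.6% were lower in KO in direction. A further list of HIF targets, given below, was close to even. Of its 31 genes past the filter, 15 were higher and 16 lower, with a median of -0.01. The lower direction was thus seen in these 10 genes and not in HIF targets in general. By the size rule, 1 of the 15 enzymes (Gapdh) and 2 of the 10 other HIF targets (Mxi1 and Ndrg1) were lower. Among all symbols, 4.30% were lower by that rule, and with so few genes the 2 counts cannot be set apart. The gap between the medians, enzymes minus other HIF targets, was 0.09 on the log2 scale and has no error, since there are no replicates. The members and the split were chosen with earlier results of these data known, and a lower tilt of hypoxia genes was among those results.

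**Figure D3:**
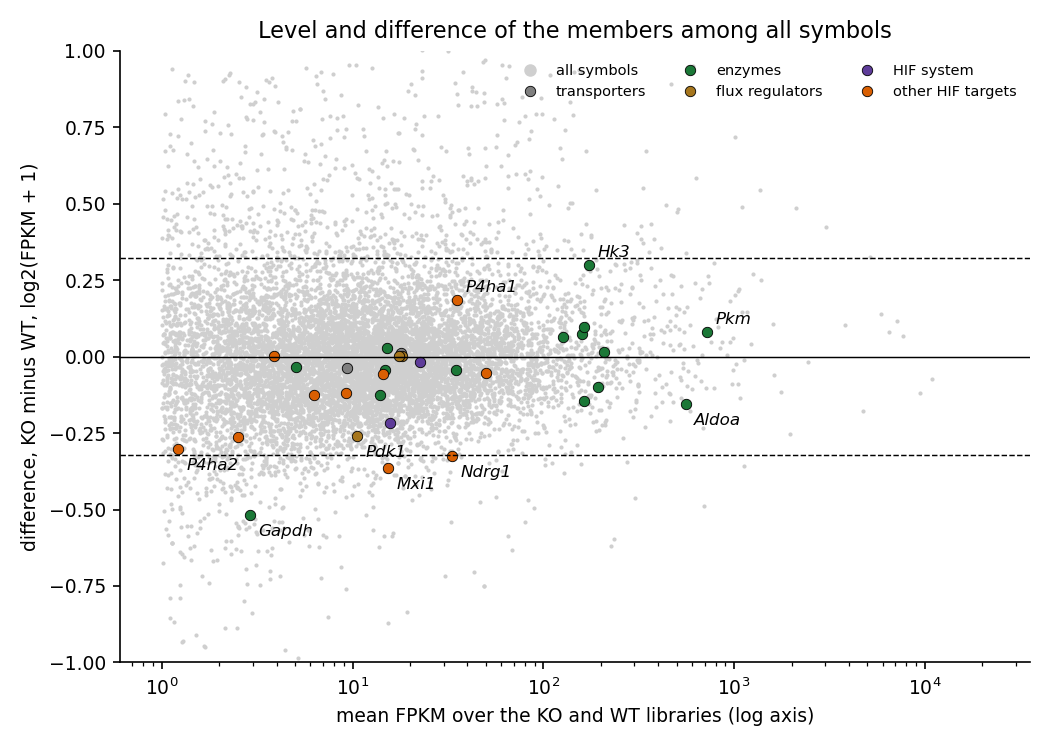
Mean FPKM over both libraries (log axis) against the difference in log2(FPKM + 1), KO minus WT, for all 10536 symbols past the filter (grey) and the members (coloured by role); dashed lines mark the size rule, and symbols differing by over 1 in size fall outside the axis. The abundant enzymes on the right sit within the size rule, and the 3 genes below it, Gapdh, Ndrg1 and Mxi1, have means of 2.89, 33.2 and 15.4 FPKM.

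Promoter sequences of RefSeq on GRCm38.p6 were searched for the core of the hypoxia response element, the sequence HIF binds, written as ACGTG or GCGTG on either strand. Each window runs from 250 bases before to 50 after a gene's start, and a gene with several starts has several windows. For 34 of the 36 members there were 50 windows, with none for Bnip3l and Ndrg1. At least 1 core stood in 40 of the 50 windows (80.0%), against 62.4% of the 10639 windows of symbols past the filter and 43.8% of all 32851 windows. Windows of 1 gene can overlap, and the 4 members below the filter are included. Counted by gene, 32 of the 34 members (94.1%) had a core in some window, against 68.5% of symbols past the filter and 46.7% of all. The core ACGTG stood in 58.0% of members' windows, against 26.3% for symbols past the filter and 19.6% of all. The core GCGTG stood in 52.0% of members' windows, against 50.7% and 32.4%. The members' windows had a median GC content of 64.0%, against 60.7% for symbols past the filter and 52.7% for all. A match is a description of the letters and not a binding site.

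Of the enzymes' windows, 19 of 25 (76.0%) held a core, and of the other HIF targets' windows 12 of 15 (80.0%). The E-box CACGTG, the site of MYC, MAX and MXI1, contains ACGTG on both strands and so counts as 2 cores. It stood in 5 of the members' windows (10%), against 10.4% for symbols past the filter and 7.15% of all.

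Windows are printed, 5′ to 3′ on the gene's strand with every core in capitals, for the enzyme and the other HIF target with the lowest difference that have a window, for the member with the most cores, and for the member with the highest difference, the last chosen after the values were seen. Gapdh (chr6:125165724-125166023, minus strand) holds 3 cores, Mxi1 (chr19:53329163-53329462, plus strand, the first of its windows with the most cores) holds 1, Ldha (chr7:46845554-46845853, plus strand) holds 7 of which 4 belong to 2 E-boxes, and Hk3 (chr13:55021336-55021635, minus strand) holds 1.
Gapdh: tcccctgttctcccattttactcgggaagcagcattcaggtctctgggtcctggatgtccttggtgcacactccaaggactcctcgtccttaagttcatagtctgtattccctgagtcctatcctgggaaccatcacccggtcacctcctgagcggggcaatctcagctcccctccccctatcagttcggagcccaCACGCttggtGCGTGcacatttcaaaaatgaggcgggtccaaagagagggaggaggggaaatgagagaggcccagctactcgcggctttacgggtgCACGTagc
Mxi1: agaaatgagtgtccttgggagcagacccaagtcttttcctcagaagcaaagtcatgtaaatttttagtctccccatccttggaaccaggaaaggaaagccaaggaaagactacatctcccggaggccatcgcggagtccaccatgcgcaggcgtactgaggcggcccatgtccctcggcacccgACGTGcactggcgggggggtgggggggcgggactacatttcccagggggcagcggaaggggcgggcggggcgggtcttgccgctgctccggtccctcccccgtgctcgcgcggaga
Ldha: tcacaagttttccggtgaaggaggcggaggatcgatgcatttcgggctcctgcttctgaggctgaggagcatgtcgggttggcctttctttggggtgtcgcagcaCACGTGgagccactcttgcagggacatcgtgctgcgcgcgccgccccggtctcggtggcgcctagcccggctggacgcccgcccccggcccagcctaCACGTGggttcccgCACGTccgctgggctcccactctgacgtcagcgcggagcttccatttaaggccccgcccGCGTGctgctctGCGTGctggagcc
Hk3: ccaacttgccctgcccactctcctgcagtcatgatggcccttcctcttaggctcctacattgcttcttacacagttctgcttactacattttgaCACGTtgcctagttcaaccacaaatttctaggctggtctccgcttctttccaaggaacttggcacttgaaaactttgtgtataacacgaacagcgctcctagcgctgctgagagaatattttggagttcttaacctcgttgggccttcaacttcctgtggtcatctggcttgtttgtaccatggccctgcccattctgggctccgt

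Genes of neighbouring steps were read as whole lists. Of the other isozymes, 8 of 16 passed the filter with a median of -0.03 and none counted by the size rule. Among all symbols, 7.55% were counted as higher and 4.30% as lower. Ldhb, the lactate dehydrogenase subunit that favours pyruvate, stood at 9.43 FPKM in KO against 11.5 FPKM in WT, and Aldoc at 4.55 FPKM in KO against 5.17 FPKM in WT. Gapdhs, the sperm form of Gapdh, stood at 3.31 FPKM in KO against 2.89 FPKM in WT, close to Gapdh in level and opposite in sign.

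Of the other glucose and lactate transport genes, 7 of 8 passed the filter (median 0.03). By the size rule 1 gene was counted as higher, against 7.55% of all symbols. That gene was Slc2a6, a sugar transporter of lysosomal membranes, at 42.3 FPKM in KO against 30.1 FPKM in WT (0.48), more abundant than Slc2a1 in both libraries. Bsg, the chaperone of lactate transporters, stood at 134.5 FPKM in KO against 118.0 FPKM in WT (0.19), and Slc16a1, another lactate transporter, at 4.40 FPKM in KO against 3.97 FPKM in WT.

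The branches off glycolysis were read by the size rule, by which 7.55% of all symbols were higher and 4.30% lower. In lists this short, a count of none does not set the genes apart from all symbols. All 8 pentose phosphate genes passed the filter (median -0.01, none counted). Among them G6pdx, the entry enzyme, stood at 99.3 FPKM in KO against 111.1 FPKM in WT, Taldo1 at 161.2 FPKM in KO against 140.5 FPKM in WT, and H6pd, which has several rows, at 9.97 FPKM in KO against 11.8 FPKM in WT. Of the genes of pyruvate entry into mitochondria, 12 of 13 passed (median 0.02, none counted). Mpc1, a subunit of the pyruvate carrier, stood at 14.2 FPKM in KO against 11.8 FPKM in WT, Dld, a subunit of pyruvate dehydrogenase, at 34.6 FPKM in KO against 29.2 FPKM in WT, and Pcx, pyruvate carboxylase, at 1.01 FPKM in KO against 1.32 FPKM in WT.

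Gluconeogenesis and glycogen genes had the lowest median of these lists, -0.18 over 10 of 14, with 8 lower in direction and 2 counted as lower. This median was -0.11 both with a filter of 5 FPKM and with no filter. Among all symbols, 52.6% were lower in direction and 4.30% were counted as lower. Gys1, glycogen synthase, stood at 3.68 FPKM in KO against 5.05 FPKM in WT (-0.37), and Gbe1, the glycogen branching enzyme and a known HIF target, at 3.61 FPKM in KO against 4.69 FPKM in WT (-0.30). The other gene counted was Pgm1, at 0.197 FPKM in KO against 2.16 FPKM in WT (-1.40), a symbol with several rows whose value is uncertain. Pgm1 passed the filter only through its WT value, so its place among the lower genes is tied to the filter.

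The rest of the HIF machinery had a median of -0.07 over 13 of 15 genes, and a mean of 0.01, opposite in sign. Of these genes, 2 were counted as higher and 1 as lower, against 7.55% of all symbols higher and 4.30% lower. The higher pair were Rbx1 (27.8 FPKM in KO against 20.9 FPKM in WT) and Elob (104.6 FPKM in KO against 82.1 FPKM in WT), subunits of the ubiquitin ligase that works with VHL. Epas1, the HIF-2 alpha subunit, was counted as lower, at 2.80 FPKM in KO against 3.97 FPKM in WT (-0.39). Epas1 was less abundant than Hif1a in both libraries.

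A further list of 40 HIF targets was close to evenly split. Of its 31 genes past the filter, 15 were higher and 16 lower in direction, with a median of -0.01, and 2 were counted as higher and 1 as lower. Among all symbols, 52.6% were lower in direction, 7.55% were counted as higher and 4.30% as lower, so these counts are near those shares. Sap30, a subunit of a histone deacetylase complex, stood at 37.9 FPKM in KO against 27.2 FPKM in WT (0.46), and Pdgfb, a growth factor, at 6.23 FPKM in KO against 4.56 FPKM in WT (0.38). Hilpda, a lipid droplet protein, stood at 4.02 FPKM in KO against 5.31 FPKM in WT (-0.33). Gbe1, Aldoc and Cited2 stand in 2 of these lists.

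**Figure D4:**
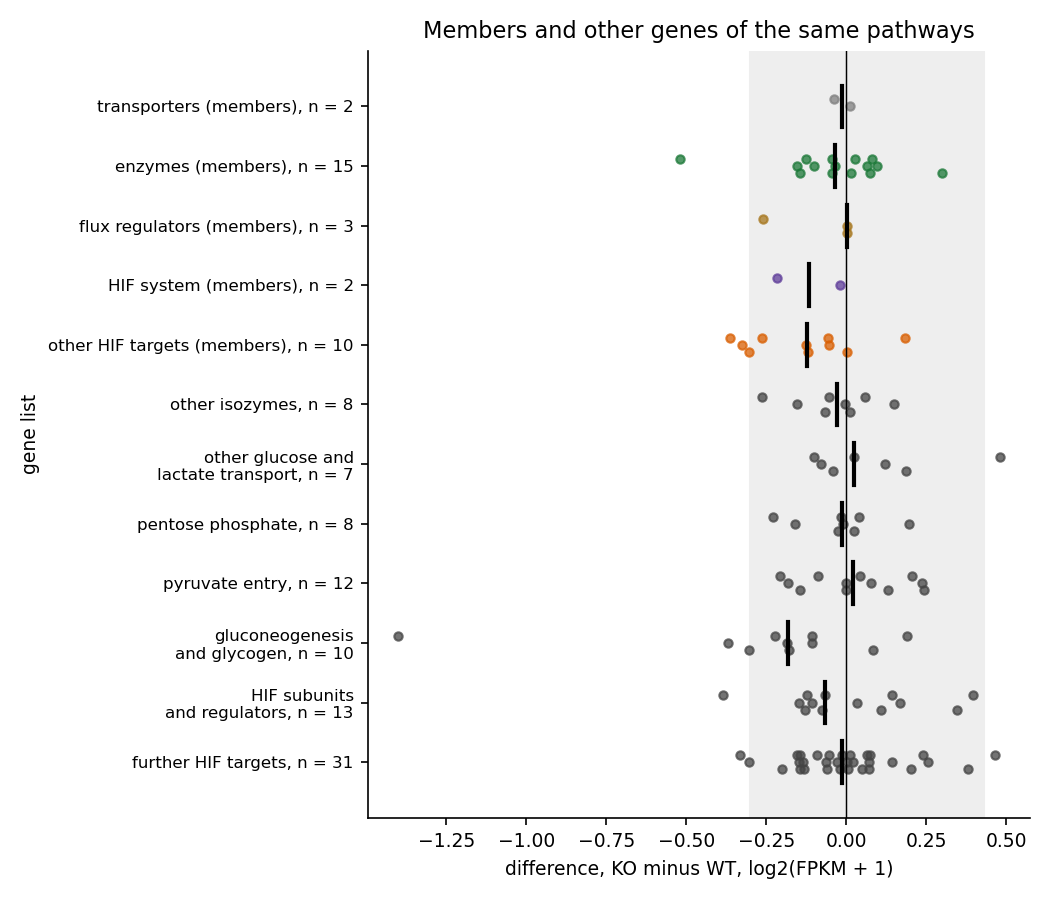
Difference in log2(FPKM + 1), KO minus WT, of each gene past the filter in the member groups (coloured) and in the other lists of the same pathways (grey), with each list's median as a black bar and the middle 90% of all symbols as a grey band. The medians run from -0.18 for gluconeogenesis and glycogen to 0.03 for other glucose and lactate transport; the far-left point is Pgm1.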

How the data were processed

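The authors deposited 1 table of FPKM for the whole series. RSEM, DESeq2 and mm10 appear in the submitters' processing notes without role or version; the aligner, annotation and filters used were not given in the sources used here. Only the KO and WT columns carry sample titles; 2 further value columns match no sample and were not used.

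Of 42396 rows, 2379 carry a number added to a repeated symbol. Where a symbol repeats, its highest row by mean FPKM stands for it. With 1 library per genotype there is no p-value or error. Depth is unknown; among symbols whose values sum to below 0.3 FPKM the most common KO to WT ratio was 1.308, taken as 1 read each, which puts WT at 1.308 times the depth of KO.

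The members and lists were chosen with earlier results of these data known. All members are named, with up to 3 genes of each other list by size of difference. Older symbols were matched through RefSeq synonyms; coordinates and exon lengths come from GENCODE M21 (GRCm38, which is mm10). Alternatives were 2 pseudocounts, 4 scalings, 2 treatments of repeat rows, 2 filters, list means, 2 size rules and wider groups. Removing the trend with gene length and leaving out Ero1a or Gapdh were added after seeing the data. Counting was tested on simulated data. Python 3.11.15, pandas 2.3.3 and matplotlib 3.10.9 were used.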

Additional observations from a re-analysis of the deposited data

How the results depend on the processing

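The enzyme median ran from -0.08 to -0.01 and that of the other HIF targets from -0.17 to -0.08 over 15 alternatives each. The gap between them ran from 0.06 to 0.12, with the same sign in each. Every alternative rereads the same 2 libraries, and a scaling moves both medians by nearly the same amount. The constant sign was thus largely fixed beforehand and is no separate evidence for the gap. No alternative counted a member as higher. The count of 3 lower members became 5 with a pseudocount of 0.1 FPKM, adding P4ha2 and Car9, and 0 with a pseudocount of 5 FPKM. Among all symbols, the count of 453 lower became 706 and 142 with the same pseudocounts. The members' count was also 0 under the 50% and 100% size rules. Ndrg1 was no longer counted under the trimmed-mean scaling (-0.31) or with the length trend removed (-0.30). With the summed FPKM without Spp1 and Lyz2 set equal, the median of all symbols moved to -0.06, and 649 symbols were higher and 665 lower, against 795 higher and 453 lower as reported; P4ha2 then passed the size rule (-0.33). No member counted as lower changed sign under any alternative, and 403 of 408 values for single members moved by no more than 0.1. However, 7 members, each within 0.03 of 0 as reported, changed sign 15 times in all. Pfkp, Ldha and Higd1a were among those that turned lower in KO without Spp1 and Lyz2 in the sums. The counts of members by direction therefore depend on the scaling. The medians of 6 of the 7 other lists, each within 0.07 of 0, changed sign or reached 0 under 1 or more alternatives. No paired analysis was possible because each genotype has 1 library. The unknown depth limits the low genes most, Adm, Egln3, Ddit4 and Ankrd37 among them.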
